A study of Mus musculus with 6 samples.

Results

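The genes described here carry the signal of the receptor for thyroid-stimulating hormone (TSH) and of other receptors coupled to the stimulatory G protein. They were taken by gene symbol from a fixed list of 43 genes, all of which were found among the 54532 genes of the expression table. RNA sequencing had been done on CD11b-positive bone marrow cells, isolated by positive selection from the tibial marrow of 12-week-old mice. The libraries labelled Tshr-/- (3) carry a mutation of the TSH receptor gene, which another label of the same samples calls a knockdown, and those labelled Tshr+/+ (3) are wild type. The labels do not name the exons removed, the strain or the sex, and a treatment label that the groups share names osteoclast differentiation with no time. CD11b is an integrin chain of myeloid cells, so the cells can include neutrophils, monocytes, macrophages and precursors of bone-resorbing osteoclasts.

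As background, TSH and ligands such as prostaglandins and adenosine bind G protein-coupled receptors. An occupied receptor activates the stimulatory G alpha subunit, which switches on adenylyl cyclase, while inhibitory G alpha subunits switch it off. The cyclic AMP (cAMP) made by the cyclase releases the catalytic subunits of protein kinase A (PKA) from its regulatory subunits and also opens Epac exchange factors. PKA then phosphorylates CREB transcription factors, which act on cAMP response elements in promoters. Phosphodiesterases break cAMP down, and G protein-coupled receptor kinases with arrestins silence the receptors. In osteoclast precursors the TSH receptor is known as a restraint on differentiation, and in myeloid cells cAMP is known to dampen inflammatory responses.

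Values are FPKM, fragments scaled to gene length and library size by the authors, so that levels of different genes are given per length of the gene model. Between 14698126 and 17976477 fragments had been assigned to genes in a library, so that each fragment on a gene of 1 kb added 0.0496 to 0.0713 FPKM. The CD11b chains Itgam and Itgb2 summed to 684, 765 and 596 FPKM in Tshr-/- libraries, against 714, 758 and 649 FPKM in Tshr+/+ libraries, and all 11 neutrophil markers averaged at least 1 FPKM. Of 7 osteoclast markers 3 did so (Acp5, Ctsk and Mmp9). Calcr was at 0 in 5 of the 6 libraries, and Dcstamp stayed at or below 0.455 FPKM. Apart from Ocstamp, each of the 7 was highest in the library Tshr-/- 2, with 29.7 FPKM of Acp5 and 37.4 FPKM of Ctsk. The other libraries had 5.12 to 11.8 FPKM of Acp5 and 3.30 to 15.1 FPKM of Ctsk. The libraries numbered 3 of both genotypes stood apart from the rest: for 36.7% of the 10913 genes tested, both lay on the same side outside the range of the other 4 libraries.

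The promoters of the pathway's own genes show where cAMP response elements stand. Of the 43 genes, 33 had promoter windows in RefSeq (GRCm38.p6, 250 bases before to 50 bases after a start), 63 windows in all. The full element TGACGTCA, which reads the same on both strands, was in 2 of these windows (3.17%), against 588 of 32851 windows of all genes (1.79%). Both windows belong to Prkar1a and hold the same site, chr11:109650900-109650907. The core TGACG, searched also as CGTCA for the other strand and contained in each full element, was in 22 windows of 18 of the genes (34.9%), against 6837 windows of all genes (20.8%). A match describes letters only and does not show binding. The 3 windows printed here belong to genes that lead their step in these cells and hold the full element or at least 2 matches of the core, with 1 of the overlapping Prkar1a windows shown; matches are in capitals.
Prkar1a, chr11:109650699-109650998, plus strand: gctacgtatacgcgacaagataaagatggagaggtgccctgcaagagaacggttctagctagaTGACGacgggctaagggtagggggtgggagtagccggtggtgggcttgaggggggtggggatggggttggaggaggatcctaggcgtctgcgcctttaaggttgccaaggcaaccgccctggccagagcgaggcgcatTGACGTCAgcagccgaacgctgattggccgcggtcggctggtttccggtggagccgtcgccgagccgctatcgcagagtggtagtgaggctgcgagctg
Prkaca, chr8:83972728-83973027, plus strand: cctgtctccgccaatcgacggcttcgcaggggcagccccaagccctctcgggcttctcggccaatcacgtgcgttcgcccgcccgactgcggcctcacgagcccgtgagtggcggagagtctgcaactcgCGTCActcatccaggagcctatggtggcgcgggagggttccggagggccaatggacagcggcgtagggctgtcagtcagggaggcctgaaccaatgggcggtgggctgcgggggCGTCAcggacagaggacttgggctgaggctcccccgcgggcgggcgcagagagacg
Rgs2, chr1:144004100-144004399, minus strand: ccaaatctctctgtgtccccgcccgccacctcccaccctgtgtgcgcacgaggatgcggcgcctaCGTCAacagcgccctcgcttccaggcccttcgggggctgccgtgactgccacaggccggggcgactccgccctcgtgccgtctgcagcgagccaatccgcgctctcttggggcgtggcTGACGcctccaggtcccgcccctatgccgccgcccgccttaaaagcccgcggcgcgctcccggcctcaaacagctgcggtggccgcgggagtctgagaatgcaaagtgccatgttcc
In the Prkar1a window shown the full element starts 49 bases before the transcription start, and a separate core stands further upstream. In the window not shown, chr11:109650612-109650911, the same element lies after the start. Prkaca has 2 cores in its window, both read as CGTCA, and Rgs2 has 1 in each orientation.

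Tshr was below the other 5 receptor genes among the 43. It measured 0.414, 0.297 and 0.00825 FPKM in the libraries labelled Tshr-/-, from 40, 25 and 1 fragments, against 0.537, 0.552 and 0.405 FPKM in Tshr+/+ libraries, from 55, 55 and 45 fragments. Only the library labelled Tshr-/- 3 was near 0 (exact 95% Poisson interval 0.000209 to 0.0460 FPKM, counting error only), and the library labelled Tshr-/- 1 lay inside the Tshr+/+ range. The means were 0.239 ± 0.209 FPKM in Tshr-/- libraries and 0.498 ± 0.0811 FPKM in Tshr+/+ libraries (SD, n = 3 each), and an exact two-sided permutation test gave p = 0.2 (with 3 libraries on each side it cannot go below 0.1). None of the exon bases of Tshr (chromosome 12, 91384563 to 91549808, plus strand, GRCm38) is shared with another gene of GENCODE M21. Fragments of a retained part of a mutated gene would count towards these values, and no label names the missing part. The libraries that share the label Tshr-/- differed, with 40, 25 and 1 fragments, and the cause was not tested. Whether the genotype label holds for the libraries with 40 and 25 fragments was not tested either. Every direction given here is therefore that of the labels.

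The partners of the TSH receptor in the thyroid were also low. None of 12 genes of the TSH axis reached the level for testing (at least 1 FPKM in at least 3 libraries). The highest was Tg, the thyroglobulin gene, with 0.694 ± 0.229 FPKM in Tshr-/- libraries and 0.891 ± 0.377 FPKM in Tshr+/+ libraries (SD, n = 3 each). Tshb, which encodes the beta chain of TSH, averaged 0.236 FPKM over the 6 libraries, and Cga, which encodes the shared alpha chain, was at 0 in all of them.

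**Figure D1:**
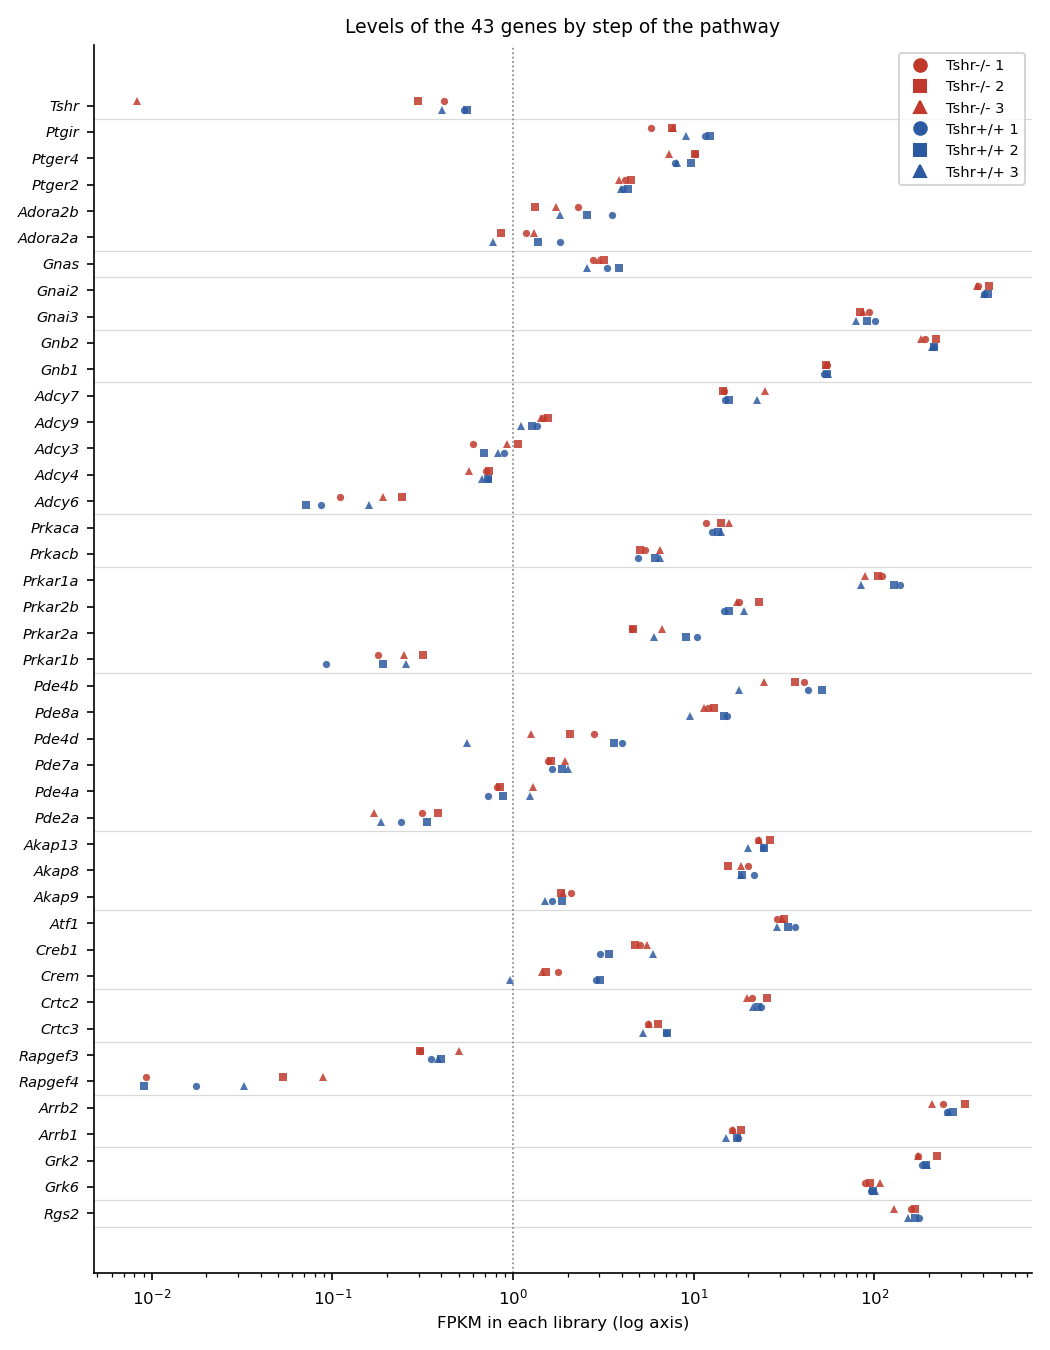
FPKM of each of the 43 genes in each library on a log axis, ordered by step of the pathway, with symbols for the library number and colours for the genotype. Gnai2, Arrb2, Gnb2, Grk2 and Rgs2 sit above 100 FPKM, and Tshr, Adcy4, Adcy6, Prkar1b, Pde2a, Rapgef3 and Rapgef4 sit below 1 FPKM, in every library.

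Comparison of the genotypes asks whether cells labelled as lacking the receptor express its signalling chain differently. No gene of the chain passed the test. On the scale log2(FPKM + 1), limma with Benjamini-Hochberg adjustment over 10913 genes called 0 genes at an adjusted p under 0.05 (0% of genes tested), and 0 of the 34 genes of the chain that were high enough to test. At an unadjusted p under 0.05 there were 317 genes in all (2.9%) and 2 of the 34, the prostacyclin receptor gene Ptgir and the PKA subunit gene Prkar2a, both at an adjusted p of 0.9997. Log2 fold changes of the 34 genes ran from -0.59 to 0.29 with a median of -0.04, beside a median of -0.01 over all genes tested. Of the 34, 11 were above 0 and 23 below, and 28 lay within 0.2 of 0. Of all 10913 genes tested, 5138 were above 0 and 5775 below, and 8444 lay within 0.2 of 0. The 9 genes below the level for testing were Tshr, Adcy3, Adcy4, Adcy6, Prkar1b, Pde2a, Pde4a, Rapgef3 and Rapgef4.

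**Figure D2:**
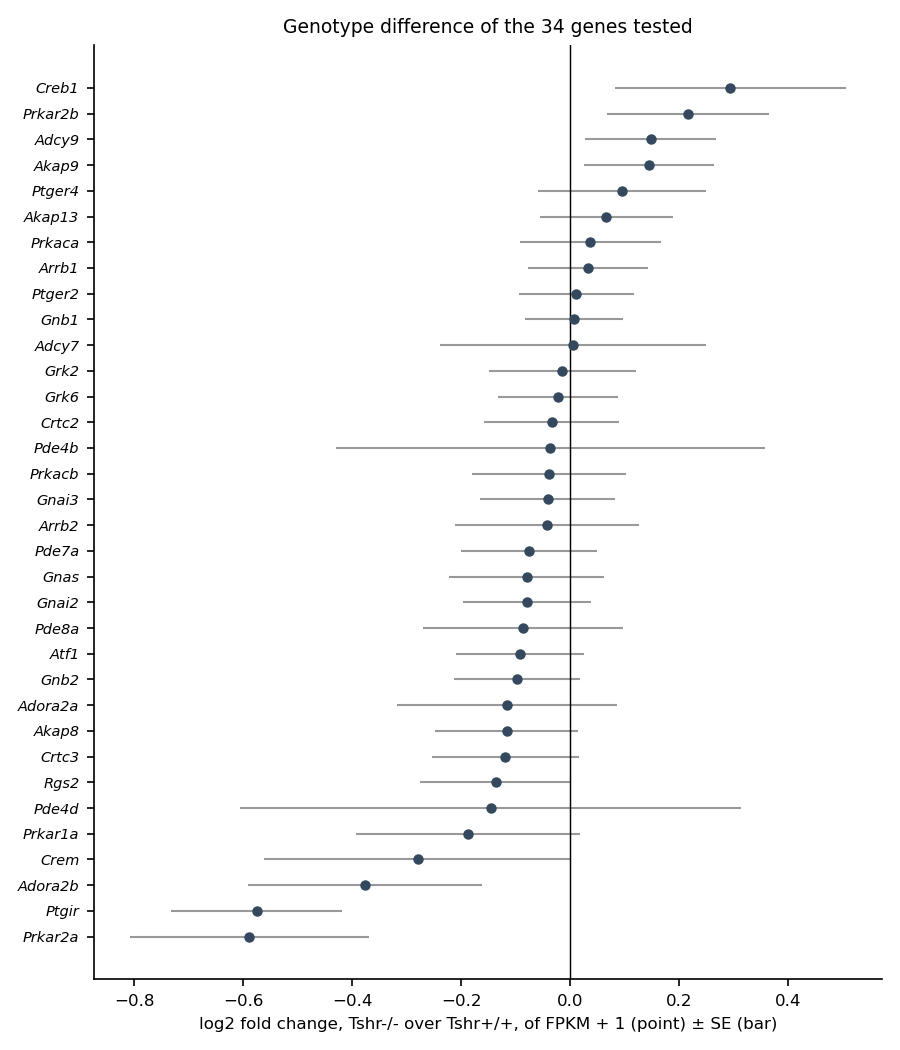
Log2 fold change of FPKM + 1, Tshr-/- over Tshr+/+ (point), with its standard error (bar), for the 34 genes tested, ordered by fold change. Prkar2a at -0.59 and Ptgir at -0.58 stand lowest and Creb1 at 0.29 highest; none passed the adjusted threshold.

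Among receptors coupled to the stimulatory G protein, the cells used those for prostaglandins and adenosine at levels above that of the TSH receptor. Ptgir, the prostacyclin receptor gene, measured 5.78, 7.62 and 7.67 FPKM in Tshr-/- libraries, against 11.5, 12.3 and 9.05 FPKM in Tshr+/+ libraries. All Tshr-/- libraries were below all Tshr+/+ libraries. The means were 7.02 ± 1.07 FPKM in Tshr-/- libraries and 10.96 ± 1.71 FPKM in Tshr+/+ libraries (SD, n = 3 each), with a log2 fold change of -0.58 ± 0.16 (SE; limma adjusted p = 0.9997). Groups that did not overlap were found for 6.77% of all genes tested and for 2 of the 34 genes (5.88%), Ptgir and Adcy9, a share near that of all genes.

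Ptger4 and Ptger2 encode prostaglandin E2 receptors. Ptger4 averaged 9.24 ± 1.67 FPKM in Tshr-/- libraries and 8.52 ± 0.941 FPKM in Tshr+/+ libraries, and Ptger2 4.17 ± 0.339 FPKM in Tshr-/- libraries and 4.12 ± 0.183 FPKM in Tshr+/+ libraries (SD, n = 3 each). The ranges of the genotypes overlapped for both. Adora2b, an adenosine receptor gene, measured 2.29, 1.31 and 1.72 FPKM in Tshr-/- libraries, against 3.53, 2.55 and 1.82 FPKM in Tshr+/+ libraries. The library Tshr+/+ 3 lay inside the Tshr-/- range, and the log2 fold change was -0.38 ± 0.22 (SE; limma adjusted p = 0.9997). Adora2a, the other adenosine receptor gene, averaged 1.12 ± 0.231 FPKM in Tshr-/- libraries and 1.33 ± 0.524 FPKM in Tshr+/+ libraries.

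Of 29 such receptor genes on the wider pathway list, 11 were tested, 5 with a log2 fold change above 0 and 6 below, and 0 passed. Gpr65, a proton-sensing receptor gene, had a mean of 13.5 FPKM over the 6 libraries. Calcrl, which encodes a receptor of calcitonin gene-related peptide and adrenomedullin, measured 3.59, 4.79 and 3.27 FPKM in Tshr-/- libraries, against 6.44, 6.28 and 3.98 FPKM in Tshr+/+ libraries. The log2 fold change of Calcrl was -0.42 ± 0.20 (SE; limma adjusted p = 0.9997). Vipr1, a receptor gene of vasoactive intestinal peptide, had 1.20 ± 0.244 FPKM in Tshr-/- libraries and 1.74 ± 0.629 FPKM in Tshr+/+ libraries.

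Resident macrophage markers, 8 of 8 of which averaged at least 1 FPKM, summed to between 88.0 and 138 FPKM in Tshr-/- libraries and between 108 and 140 FPKM in Tshr+/+ libraries. Monocyte markers, 7 of 7, summed to between 6730 and 7975 FPKM in Tshr-/- libraries and between 7561 and 9039 FPKM in Tshr+/+ libraries. Most of each sum came from Lyz2 alone, with 6178 to 7471 FPKM in Tshr-/- and 7101 to 8509 FPKM in Tshr+/+ libraries. Other monocyte markers did not share 1 direction. Ly6c2 had 378 to 478 FPKM in Tshr-/- and 353 to 394 FPKM in Tshr+/+ libraries. Cx3cr1 had 2.68 to 4.03 FPKM in Tshr-/- and 3.48 to 7.42 FPKM in Tshr+/+ libraries. The part of these cells in the receptor values was not tested. In bulk RNA, fewer cells of a type and less RNA per cell cannot be told apart.

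In FPKM, the genes of stimulatory G alpha subunits lay far below those of inhibitory ones. The values are scaled to a gene model of 11186 bases for Gnas and of 3779 bases for Gnai2. The part of model length and counting in this gap was not tested. The genes of the stimulatory kind summed to 7.48 ± 0.784 FPKM in Tshr-/- libraries and 8.37 ± 0.705 FPKM in Tshr+/+ libraries, and those of the inhibitory kind to 478 ± 32.7 FPKM in Tshr-/- libraries and 502 ± 15.6 FPKM in Tshr+/+ libraries (SD, n = 3 each). Gnas, which encodes the stimulatory subunit of most tissues, measured 2.77, 3.18 and 2.99 FPKM in Tshr-/- libraries, against 3.31, 3.84 and 2.56 FPKM in Tshr+/+ libraries. Its relative Gnal, known from olfactory neurons and striatum, averaged 4.50 ± 0.687 FPKM in Tshr-/- libraries and 5.14 ± 0.119 FPKM in Tshr+/+ libraries, with a log2 fold change of -0.17 ± 0.12 (SE; limma adjusted p = 0.9997). Gnal was above Gnas in each of the 6 libraries, with 55.8% to 66.7% of their summed FPKM. Both values, and so their order, carry a doubt of counting. Of the 11186 exon bases of Gnas, 22.0% lie opposite exons of Nespas and Gm20721, which averaged 0.00856 and 0.0252 FPKM. In GENCODE M21, 852 exon bases of Gnal lie opposite exons of Mppe1, which averaged 41.0 FPKM. The part of Mppe1 fragments in the value of Gnal was not tested. The FPKM of Gnal also rest on a gene model of 5761 bases, which differs from that of GENCODE M21 with 11172 exon bases. No source used here says whether the authors counted by strand.

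Gnai2, the inhibitory subunit gene known from blood cells, was the most abundant of the 43 genes. It measured 372, 433 and 367 FPKM in Tshr-/- libraries, against 405, 424 and 406 FPKM in Tshr+/+ libraries, and the groups overlapped. Gnai2 held 81.6 ± 2.06% of the FPKM of inhibitory subunits in Tshr-/- and 82.1 ± 1.80% in Tshr+/+ (SD, n = 3 each). Gnai3 held nearly all of the rest, with 87.3 ± 5.41 FPKM in Tshr-/- libraries and 90.2 ± 10.8 FPKM in Tshr+/+ libraries, while Gnai1 and the neuronal form Gnao1 averaged 0.00840 and 0.00760 FPKM over the 6 libraries.

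G beta subunits pair with G gamma and signal once released. Gnb2 led with 191, 220 and 182 FPKM in Tshr-/- libraries, against 213, 213 and 207 FPKM in Tshr+/+ libraries, and held 78.1 ± 1.74% of the FPKM of G beta genes in Tshr-/- and 79.4 ± 0.603% in Tshr+/+. Gnb1 was almost flat across libraries, at 54.4 ± 0.321 FPKM in Tshr-/- libraries and 54.1 ± 1.38 FPKM in Tshr+/+ libraries. The other members of the family, Gnb3, Gnb4 and Gnb5, averaged below 1 FPKM.

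**Figure D3:**
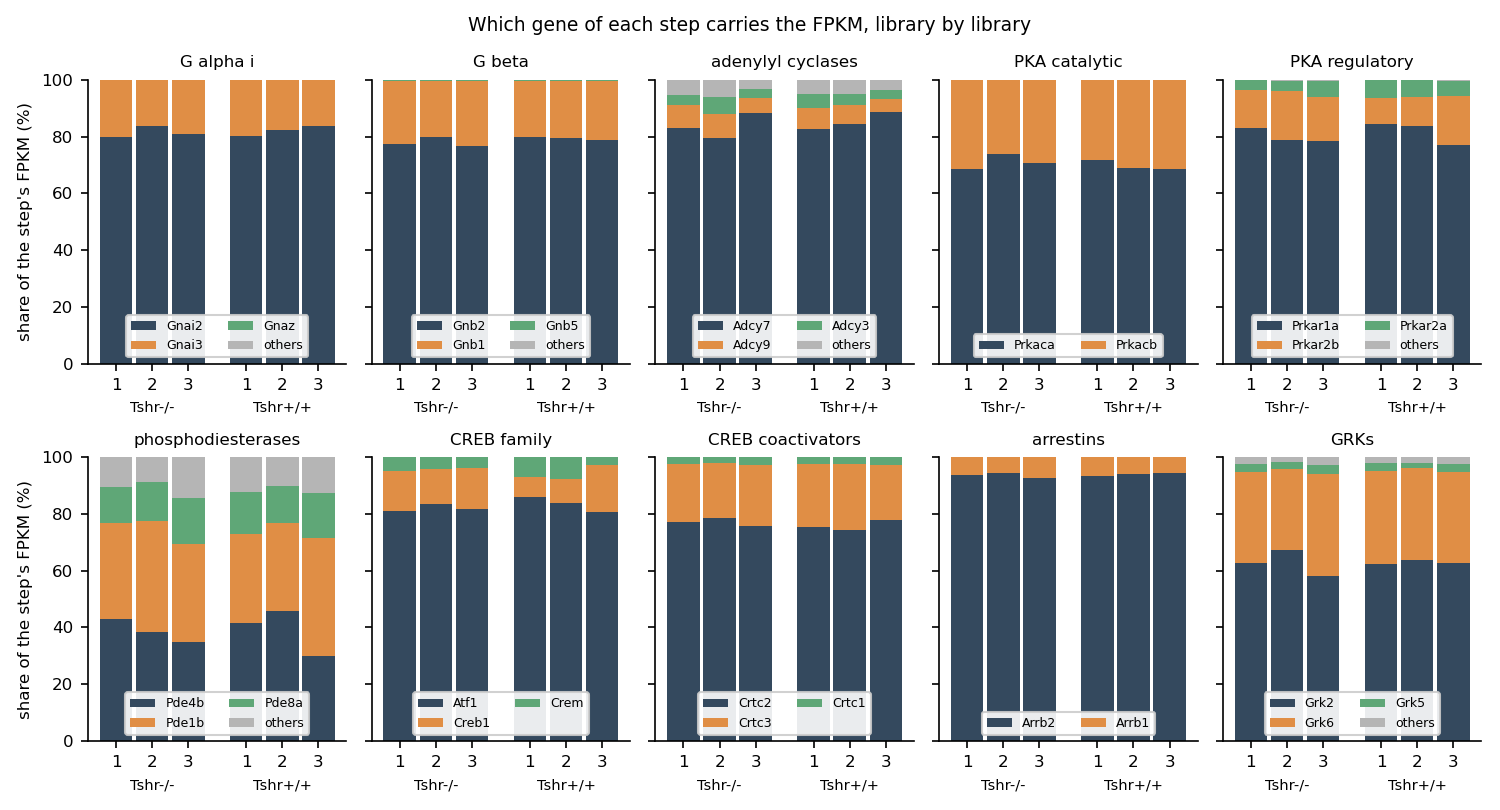
Share of each gene in the summed FPKM of its step (%), for 10 steps, in each Tshr-/- library (left bars) and each Tshr+/+ library (right bars). The same gene leads in every library for 9 of the steps, and Pde4b and Pde1b change places among phosphodiesterases.

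Adcy7 carried the adenylyl cyclase step, with 14.7, 14.5 and 24.7 FPKM in Tshr-/- libraries, against 15.0, 15.6 and 22.5 FPKM in Tshr+/+ libraries. The library numbered 3 was the highest of its genotype in both groups. Adcy7, the form known from blood cells, held 83.7 ± 4.47% of cyclase FPKM in Tshr-/- and 85.3 ± 3.20% in Tshr+/+ (SD, n = 3 each). Adcy9, a widely expressed form, measured 1.47, 1.55 and 1.42 FPKM in Tshr-/- libraries, against 1.36, 1.27 and 1.10 FPKM in Tshr+/+ libraries. All Tshr-/- libraries were above all Tshr+/+ libraries, but the log2 fold change of 0.15 ± 0.12 (SE) did not pass (limma adjusted p = 0.9997). Adcy3, Adcy4 and Adcy6 averaged 0.832, 0.689 and 0.143 FPKM over the 6 libraries, and 22.1% of the exon bases of Adcy3 lie opposite exons of Cenpo.

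The catalytic subunits of PKA came mainly from Prkaca, with 11.7, 14.2 and 15.7 FPKM in Tshr-/- libraries, against 12.5, 13.5 and 14.2 FPKM in Tshr+/+ libraries. Prkaca held 71.0 ± 2.73% of catalytic FPKM in Tshr-/- and 69.8 ± 1.79% in Tshr+/+ and Prkacb the remainder, at 5.65 ± 0.789 FPKM in Tshr-/- libraries and 5.83 ± 0.818 FPKM in Tshr+/+ libraries. Pkig led the PKA inhibitor genes with 3.27 ± 1.16 FPKM in Tshr-/- libraries and 3.97 ± 0.607 FPKM in Tshr+/+ libraries.

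Regulatory subunits of PKA hold the kinase inactive until cAMP binds. Prkar1a, whose promoter holds the full cAMP response element, measured 110, 104 and 88.4 FPKM in Tshr-/- libraries, against 139, 128 and 84.2 FPKM in Tshr+/+ libraries. The libraries numbered 3 were the lowest of both genotypes, and the log2 fold change was -0.19 ± 0.21 (SE; limma adjusted p = 0.9997). Prkar1a held 80.2 ± 2.49% of regulatory FPKM in Tshr-/- and 81.8 ± 4.15% in Tshr+/+.

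Prkar2a encodes the type II alpha subunit, which AKAP proteins anchor in the cell. It measured 4.53, 4.61 and 6.68 FPKM in Tshr-/- libraries, against 10.5, 9.06 and 6.03 FPKM in Tshr+/+ libraries. Libraries 1 and 2 of the genotypes were far apart, while Tshr-/- 3 lay above Tshr+/+ 3. Its means were 5.27 ± 1.22 FPKM in Tshr-/- libraries and 8.52 ± 2.27 FPKM in Tshr+/+ libraries (SD, n = 3 each), with a log2 fold change of -0.59 ± 0.22 (SE; limma adjusted p = 0.9997). Without both libraries numbered 3 the log2 fold change of Prkar2a was -0.95 ± 0.12 (SE, n = 2 each) and its adjusted p was 0.0722, the smallest among the genes of the chain. Without the libraries labelled Tshr-/- 1 and 2, which still held Tshr fragments, it was -0.28, from 1 Tshr-/- library.

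For Prkar2b, the type II beta subunit gene, the fold change had the opposite sign. It had 17.8, 22.8 and 17.3 FPKM in Tshr-/- libraries, against 14.7, 15.7 and 18.9 FPKM in Tshr+/+ libraries, with overlapping groups and a log2 fold change of 0.22 ± 0.15 (SE; limma adjusted p = 0.9997). Prkar1b averaged 0.214 FPKM over the 6 libraries.

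The phosphodiesterase step was spread over several genes. Pde4b, a cAMP-specific form of leukocytes, measured 40.7, 36.2 and 24.6 FPKM in Tshr-/- libraries, against 42.9, 51.1 and 17.7 FPKM in Tshr+/+ libraries. The libraries numbered 3 were lowest in both genotypes, and Tshr+/+ 3 was below Tshr-/- 3. Pde4b held 38.6 ± 4.05% of phosphodiesterase FPKM in Tshr-/- and 39.0 ± 8.28% in Tshr+/+, which overlaps the share of Pde1b, a calcium-dependent form outside the 43 genes with a mean of 30.9 FPKM. For Pde4d, another cAMP-specific form, the libraries numbered 3 were also the lowest, and its means were 2.05 ± 0.785 FPKM in Tshr-/- libraries and 2.72 ± 1.88 FPKM in Tshr+/+ libraries. Pde8a averaged 12.1 ± 0.796 FPKM in Tshr-/- libraries and 13.2 ± 3.23 FPKM in Tshr+/+ libraries, and Pde7a averaged 1.70 ± 0.201 FPKM in Tshr-/- libraries and 1.85 ± 0.184 FPKM in Tshr+/+ libraries. Pde4a and Pde2a averaged 0.967 and 0.270 FPKM over the 6 libraries, and 64.3% of the exon bases of Pde2a are shared with the predicted gene Gm45837.

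AKAP proteins tether PKA to sites in the cell. Akap13, a large scaffold form, measured 22.5, 26.3 and 23.0 FPKM in Tshr-/- libraries, against 24.1, 24.4 and 20.0 FPKM in Tshr+/+ libraries. Akap8, a nuclear form, had 17.9 ± 2.29 FPKM in Tshr-/- libraries and 19.4 ± 1.91 FPKM in Tshr+/+ libraries, and its share of AKAP FPKM overlapped that of Akap13. The FPKM of Akap8 rest on a gene model of 3695 bases, against 8663 exon bases in GENCODE M21. Akap9, a form of the Golgi and centrosome, measured 2.09, 1.85 and 1.90 FPKM in Tshr-/- libraries, against 1.64, 1.86 and 1.50 FPKM in Tshr+/+ libraries (log2 fold change 0.15 ± 0.12 SE, limma adjusted p = 0.9997). Of other AKAP genes, the log2 fold change was 0.23 ± 0.15 (SE) for Akap7 and -0.16 ± 0.10 (SE) for Akap11, both at a limma adjusted p of 0.9997. Akap11 was lower in every Tshr-/- library than in every Tshr+/+ library.

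Among CREB-family transcription factors Atf1 led. It measured 28.8, 31.7 and 31.0 FPKM in Tshr-/- libraries, against 36.2, 33.0 and 28.8 FPKM in Tshr+/+ libraries, and held 82.0 ± 1.33% of the family's FPKM in Tshr-/- and 83.5 ± 2.67% in Tshr+/+. Creb1, the founding member, measured 5.02, 4.75 and 5.51 FPKM in Tshr-/- libraries, against 3.03, 3.37 and 5.94 FPKM in Tshr+/+ libraries. The library Tshr+/+ 3 was the highest of the 6 and the other Tshr+/+ libraries the lowest, with a log2 fold change of 0.29 ± 0.21 (SE; limma adjusted p = 0.9997).

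Crem encodes activating and repressing factors of the same family, which a value per gene does not separate. It measured 1.78, 1.51 and 1.45 FPKM in Tshr-/- libraries, against 2.89, 3.01 and 0.963 FPKM in Tshr+/+ libraries. Here Tshr+/+ 3 was the lowest of the 6 and the other Tshr+/+ libraries the highest, with a log2 fold change of -0.28 ± 0.28 (SE; limma adjusted p = 0.9997). Without both libraries numbered 3 the log2 fold changes were 0.49 for Creb1 and -0.58 for Crem, at adjusted p-values of 0.183 and 0.175.

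The coactivator Crtc2, which enters the nucleus when cAMP rises, had 21.1, 25.5 and 19.7 FPKM in Tshr-/- libraries, against 23.7, 22.6 and 21.3 FPKM in Tshr+/+ libraries. It held 77.1 ± 1.42% of coactivator FPKM in Tshr-/- and 75.8 ± 1.84% in Tshr+/+. Crtc3 had 5.84 ± 0.407 FPKM in Tshr-/- libraries and 6.47 ± 1.05 FPKM in Tshr+/+ libraries. The Epac genes Rapgef3 and Rapgef4, the branch of cAMP signalling beside PKA, averaged 0.374 and 0.0352 FPKM over the 6 libraries.

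**Figure D4:**
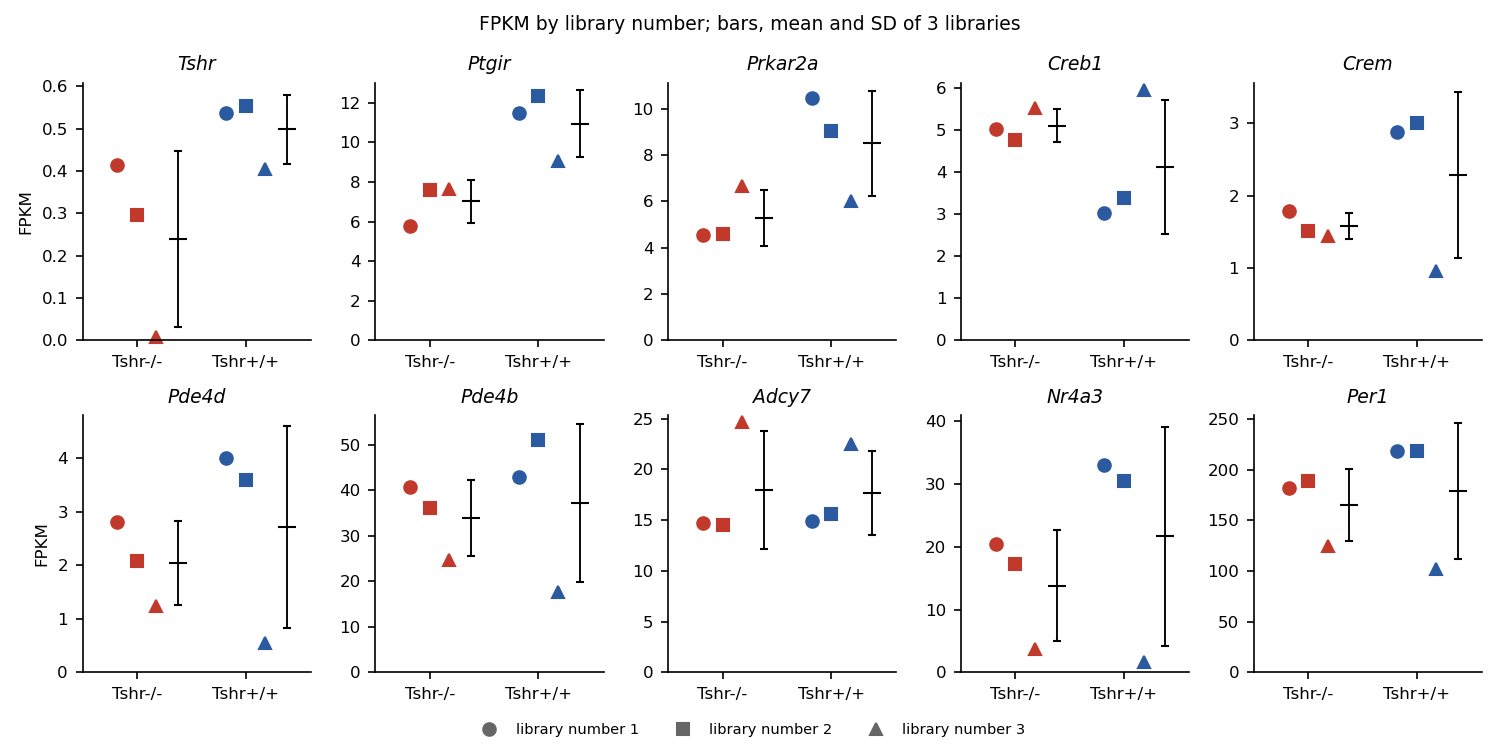
FPKM of Tshr, Ptgir, Prkar2a, Creb1, Crem, Pde4d, Pde4b, Adcy7, Nr4a3 and Per1 (Per1, a CREB target gene, and Nr4a3 were chosen after their values were seen) in each library of Tshr-/- (left) and Tshr+/+ (right), with a symbol for each library number and the mean and SD of 3 libraries. For Prkar2a, Creb1 and Crem the genotypes lie farther apart in libraries 1 and 2 than in libraries 3.

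Both libraries numbered 3 lay outside the range of the other 4 for 13 of the 34 genes (38.2%), beside 36.7% of all genes tested. They were lower for Ptger2, Prkar1a, Pde4b, Pde4d, Pde8a, Crem and Rgs2, and higher for Adcy7, Prkaca, Prkacb, Pde7a, Creb1 and Grk6. Neutrophil markers, 11 of 11 of which averaged at least 1 FPKM, had sums of 93795 FPKM in the library Tshr-/- 3 and 116117 FPKM in the library Tshr+/+ 3, and between 122702 and 144321 FPKM in the other 4 libraries. B cell markers, 2 of 5 of which averaged at least 1 FPKM, had sums of 8.56 FPKM in the library Tshr-/- 3 and 9.21 FPKM in the library Tshr+/+ 3, and between 3.67 and 6.23 FPKM in the others. S100a8 and S100a9 supplied most of each neutrophil sum. Taken singly, the neutrophil markers did not share 1 direction. In both libraries numbered 3, S100a9, Ltf and Mmp8 fell below the range of the other 4. Mpo and Elane lay inside that range in both. Cxcr2 was highest in the library Tshr+/+ 3, at 139 FPKM, with 116 FPKM in Tshr-/- 3 and 74.1 to 124 FPKM in the other 4. The part of neutrophils and B cells in the values was not tested. Among known CREB target genes, 10 of 12 were tested, 3 with a log2 fold change above 0 and 7 below (median -0.04), 0 passed, and the libraries numbered 3 were lower for 5 and higher for 2. The most abundant was Cebpb, a myeloid transcription factor gene, with 956, 1296 and 673 FPKM in Tshr-/- libraries, against 1174, 1340 and 792 FPKM in Tshr+/+ libraries. Nr4a3, a nuclear receptor gene named here after its values were seen, had 20.4, 17.3 and 3.76 FPKM in Tshr-/- libraries, against 33.0, 30.4 and 1.60 FPKM in Tshr+/+ libraries. Fos, an immediate early gene also named after its values were seen, went the other way, with 583, 684 and 923 FPKM in Tshr-/- libraries, against 492, 531 and 1080 FPKM in Tshr+/+ libraries.

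The genes that end receptor signalling were among the most abundant of the chain. Arrb2, which encodes beta-arrestin-2, measured 239, 318 and 209 FPKM in Tshr-/- libraries, against 252, 270 and 254 FPKM in Tshr+/+ libraries, and held 93.6 ± 0.916% of arrestin FPKM in Tshr-/- and 94.0 ± 0.483% in Tshr+/+. Arrb1 had 17.0 ± 1.14 FPKM in Tshr-/- libraries and 16.7 ± 1.45 FPKM in Tshr+/+ libraries. Grk2, a receptor kinase gene, measured 174, 223 and 174 FPKM in Tshr-/- libraries, against 182, 193 and 196 FPKM in Tshr+/+ libraries. The groups overlapped, and Grk2 held 62.7 ± 4.60% of receptor kinase FPKM in Tshr-/- and 63.0 ± 0.750% in Tshr+/+. Grk6 had 96.9 ± 9.52 FPKM in Tshr-/- libraries and 98.1 ± 2.10 FPKM in Tshr+/+ libraries.

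Rgs2, known to bind G alpha subunits of the Gq class and to inhibit adenylyl cyclases, measured 159, 168 and 128 FPKM in Tshr-/- libraries, against 176, 168 and 154 FPKM in Tshr+/+ libraries. The log2 fold change was -0.14 ± 0.14 (SE; limma adjusted p = 0.9997). Rgs2 held 77.6 ± 0.750% of the FPKM of the RGS genes listed in Tshr-/- and 79.4 ± 2.73% in Tshr+/+. Of the 97 genes of the wider pathway lists found in the table, 30 were tested, 15 with a log2 fold change above 0 and 15 below, with a median of 0.00, and 0 passed (0 also at an unadjusted p under 0.05, by limma).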

How the data were processed

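The authors deposited FPKM for each gene in 6 libraries made with a SMARTer mRNA kit. GRCm38 and mm10 stand as builds in the submitters' processing notes; an aligner, a counting tool and any use of strand were not stated there or in the labels. Columns headed HO were read as Tshr-/-, since the labels give no other mutant. FPKM were multiplied by gene length and divided by a unit for each library, taken from its smallest positive products. On this scale 100% of FPKM values above 0 were whole numbers of fragments (tolerance 0.01). The library size behind the values was 0.939 to 1.12 times the sum of fragments.

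FPKM were tested as log2(FPKM + 1), for genes that reached 1 FPKM in 3 or more libraries, with limma 3.58.1 in R 4.3.3 (trended variance, two-sided, Benjamini-Hochberg over all genes tested, threshold 0.05), a scale that understates changes of low genes. The test was checked on simulated data, drawn gene by gene without a shift shared by the libraries numbered 3. That check says nothing on how the test deals with such a shift. The titles number 3 mice per genotype, and p-values measure the spread between these libraries. Same-numbered libraries deviated together (correlations 0.243, 0.262 and 0.468 over 10913 genes), although Tshr-/- 1 correlated more with Tshr+/+ 2 (0.344). The main test did not pair the libraries. A pairing by number entered only the alternative with a replicate block. Genes, lists and tests were chosen with earlier results of these data known. Per-library values are given for Tshr, the most abundant gene of each step and the 10 genes of the chain with the smallest p, and other pathway genes are named when most abundant of a step or among the 5 with the smallest p; a gene that the rule admits is not reported here. Shares are a gene's FPKM over the sum of its step in a library. Alternatives were other pseudocounts, filters and scalings, voom on fragments, the replicate block and left-out libraries.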

Additional observations from a re-analysis of the deposited data

How the results depend on the processing

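None of the 34 genes passed at an adjusted p under 0.05 under any of the alternatives, and neither did any gene outside them, except 2 genes without the library Tshr-/- 3 (0 to 2 over the libraries left out in turn) and 24 genes without both libraries numbered 3. With the replicate block, which takes the libraries as paired, 0 genes passed, the unadjusted p was 0.0111 for Ptgir and 0.0570 for Prkar2a, and the block changed no call. Ptgir, Prkar2a, Creb1 and Crem kept their direction under each alternative, none of which compared the libraries numbered 3 alone. Between Tshr-/- 3 and Tshr+/+ 3 the direction was the opposite for Prkar2a (6.68 and 6.03 FPKM), Creb1 (5.51 and 5.94) and Crem (1.45 and 0.963). Ptgir kept its direction there (7.67 and 9.05 FPKM). The unadjusted p (limma) of 8 of the 34 genes was under 0.05 without both libraries numbered 3 and of 8 without Tshr+/+ 3. The share of all genes in these fits is not given here. The counts can therefore not be set beside the share in the main fit or read as a result about the chain, and the cause was not tested. Leaving out the libraries labelled Tshr-/- 1 and 2 leaves 1 Tshr-/- library, itself numbered 3, which is assumed to vary like the Tshr+/+ libraries, so that a count of 0 there says nothing on stability.

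The log2 fold changes of some genes of the chain changed sign. No gene of the chain had passed in any fit, so such changes could not touch a passing result. With each library left out in turn, the ranges were Ptger2 -0.036 to 0.058, Adora2a -0.30 to 0.036, Gnas -0.20 to 0.022, Gnai3 -0.13 to 0.037, Gnb1 -0.012 to 0.023, Adcy7 -0.23 to 0.18, Prkaca -0.051 to 0.14, Prkacb -0.14 to 0.031, Pde4b -0.49 to 0.25, Pde4d -0.69 to 0.16, Pde8a -0.29 to 0.027, Akap13 -0.022 to 0.12, Crtc2 -0.14 to 0.042, Arrb1 -0.037 to 0.072, Arrb2 -0.21 to 0.090, Grk2 -0.13 to 0.046 and Grk6 -0.098 to 0.038. Rescaling to equal totals, which moved the median of all genes to 0.04, turned Gnai3 (0.0098), Prkacb (0.0077), Pde4b (0.017), Crtc2 (0.016), Arrb2 (0.0096), Grk2 (0.037) and Grk6 (0.029) positive. Without the libraries labelled Tshr-/- 1 and 2, values of the other sign were found for Ptger2 (-0.081), Ptger4 (-0.19), Adora2a (0.017), Prkacb (0.15), Pde7a (0.046), Arrb1 (-0.013) and Grk6 (0.13). Without both libraries numbered 3 they were found for Adcy7 (-0.057), Prkaca (-0.013), Crtc2 (0.0036), Arrb1 (-0.015), Arrb2 (0.078) and Grk2 (0.068). Tshr was below the level for testing and averaged 0.369 FPKM, where counting error limits any smaller difference.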
